A study of Mus musculus with 116 samples.

Results

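The 36 h early 2-cell embryo was compared with the 30 h PN5 zygote, the last of the pronuclear stages before the first cleavage, by total RNA sequencing. A gene entered the comparison when it reached 10 FPKM (fragments per kilobase of transcript, scaled to the library's mapped fragments) in either library, after rows sharing a symbol were summed. This rule kept 5693 of the 24028 gene symbols shared by the tables, or 23.7%. Of these genes, 3455 reached 10 FPKM in both libraries, 1976 in the PN5 zygote only and 262 in the early 2-cell embryo only. At the edge of the rule, Gatsl2 (10.0 FPKM in PN5) and Mir7673 (10.0 FPKM in early 2-cell) were just inside, and Pnpla2 (9.98 FPKM in PN5) and Agpat5 (9.98 FPKM in PN5) were just outside.

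The series maps RNA polymerase II on chromatin and measures RNA in mouse oocytes and preimplantation embryos, and 5 of its 116 samples are the total RNA libraries used here. The wild-type embryos came from C57BL/6N females and PWK males, and all donors were females aged 8 weeks given PMSG (a gonadotropin that grows follicles) and hCG (a gonadotropin that triggers ovulation). Each group was 1 library of about 100 oocytes or embryos, from which RNA was extracted with TRIzol and depleted of ribosomal RNA. The PN5 zygotes were collected 30 h and the early 2-cell embryos 36 h after hCG. Values are set beside those of unfertilized MII oocytes collected 13 h after hCG and of a pair of late 2-cell libraries. Both late libraries came from zygotes collected 23 h after hCG, held 14 h in KSOM culture medium, then released and cultured 12 h more. For the 14 h before release, one of them was held in 0.1% DMSO. The other, labelled mTBE and called the DRB library below, was held in DRB at 60 uM, which blocks transcript elongation. With 1 library in each group there is no replicate error, no test could be run, and no p-value is given. A gene is called higher or lower here when its levels differ at least 2-fold, which describes these libraries and not the stages.

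The mouse egg is transcriptionally silent and lives on RNA stored during oocyte growth. After fertilization this maternal RNA is shortened at its tail and degraded, while the zygotic genome starts at a low and poorly spliced level (minor activation) before the main wave of activation in the late 2-cell embryo. Dux, Zscan4 and related multicopy genes are the known early genes of this window, and replication-dependent histone genes are transcribed without a poly(A) tail in S phase.

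Levels differed across the whole table before any gene was considered. Over 5164 genes at 5 FPKM or more in both libraries, the median log2 ratio of early 2-cell to PN5 was -0.87, a 0.549-fold level. That median was set to 0, so each difference below is that of log2(FPKM + 1) between early 2-cell and PN5 relative to the median gene. Where a pair of values stands without a library name, the first is PN5 and the other early 2-cell. FPKM is a share of each library, so the RNA content per embryo was not measured, and less RNA per cell cannot be read from it. The FPKM summed over the shared symbols was 354359 in PN5 and 212639 in early 2-cell, a log2 ratio of -0.74. The source of this difference, and any part of a changed mix of cells in it, was not tested. Against PN5, the same median was -0.33 for the MII oocyte, -0.13 for the late 2-cell DMSO control and -0.18 for the DRB library. Read depth is unknown, because the tables hold FPKM only. Whether the counting used strand is not given in the sources used here.

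The PN5 values came from a table that also holds both late 2-cell libraries, whereas the early 2-cell and MII values each have a table of their own, written in another number format. For some genes MII stood near early 2-cell, and the late control near PN5. Ube2s, the E2 enzyme of the anaphase-promoting complex, was at 252 FPKM in MII and 333 in early 2-cell, but at 2.78 in PN5 and 5.01 in the late control. Pld1, phospholipase D, was at 14.0 FPKM in MII and 8.14 in early 2-cell, against 201 in PN5 and 223 in the late control. Of the 5693 genes, 115 were under 1 FPKM in PN5 only and 52 were under 1 FPKM in early 2-cell only. Among those, 54 were under 1 FPKM in PN5 and both late libraries and at 10 FPKM or more in early 2-cell and MII. Another 9 were under 1 FPKM in early 2-cell and MII and at 10 FPKM or more in PN5 and both late libraries. Nlrp4g and Taf1a are among the 9. Genes low across a table that miss the 10 FPKM condition, such as Gm6763, are in neither count. Stage and table cannot be told apart in the 54 and the 9 genes. Akr1b3, an aldose reductase with close relatives, and the pseudogene Oaz1-ps are of the first kind, at 0.000491 and under 1 FPKM in PN5 against 164 and 188 in early 2-cell. A gene is called table-grouped below when early 2-cell stood within 2-fold of MII, and the late control within 2-fold of PN5, each on its own median-shifted scale. By that description 37.3% of the higher genes (234) and 36.3% of the lower genes (360) were table-grouped, and the part of processing in them was not tested. Values of near-identical gene copies are uncertain throughout, since reads can be split between copies.

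In all, 628 genes (11.0%) were at least 2-fold higher in early 2-cell, 993 (17.4%) were at least 2-fold lower, and 4072 lay within 2-fold, so 28.5% were called in either direction. These shares are the background for each group of genes below. A higher call with a difference under 1.87 rests on the median shift, and without the shift 246 of the 628 were higher. In 5 lists described below no higher member was left without it, namely the factors named for genome activation, the subcortical maternal complex, the mRNA storage genes, the Tcl1 cluster and the pluripotency factors. The 262 genes that reached 10 FPKM in early 2-cell only could hardly be other than higher. Several lists below hold such genes among their higher members. Among the 5431 at 10 FPKM or more in PN5, 371 (6.83%) were higher, 993 were lower and the median difference was -0.19. The median difference of the genes was -0.14, with quartiles at -0.78 and 0.46. A 4-fold difference was passed upward by 229 genes and downward by 157. Lower genes outnumbered higher ones up to a mean of 200 FPKM, with 11.2% higher and 17.8% lower among 2578 genes under 20 FPKM. Among the 183 genes above 200 FPKM, 16.4% were higher and 14.2% lower.

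**Figure D1:**
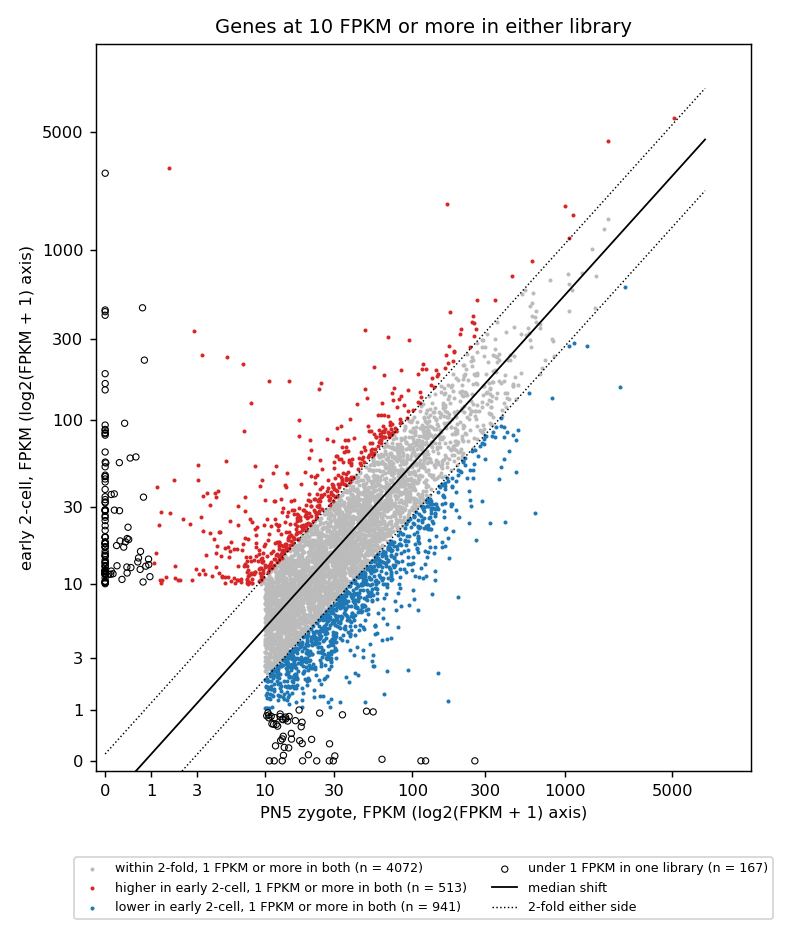
Each point is 1 of the 5693 genes, with its FPKM in the PN5 zygote on the horizontal axis and in the early 2-cell embryo on the vertical axis, both on a log2(FPKM + 1) scale. The solid line is the median shift, the dotted lines are 2-fold either side, and open circles are the 167 genes under 1 FPKM in one library, which line both edges of the plot.

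Oocyte and early embryo markers were present in both libraries. The zona pellucida gene Zp3 was at 43.5 FPKM in PN5 and 24.2 in early 2-cell, and Gdf9, the oocyte-secreted growth factor, at 406 and 144. Dppa3, which protects the maternal genome from demethylation, was at 517 and 190.3 FPKM, and the deadenylation adaptor Btg4 at 1582 and 711. Of 20 cumulus and granulosa cell markers, 2 reached 10 FPKM, namely Serpine2 (124 FPKM in PN5, 30.6 in early 2-cell) and Cyp19a1, the aromatase (12.2 and 3.61). The other 18 were under 1 FPKM in both libraries, with 12 of the 20 listed at 0 in PN5 and 9 in early 2-cell. The summed level of the list was 138 FPKM in PN5 and 35.7 in early 2-cell. Of 16 sperm and spermatid transcripts, 3 reached 1 FPKM in each library, and the protamine gene Prm2 was at 5.28 FPKM in PN5 and 2.13 in early 2-cell. The summed level of that list was 76.3 FPKM in PN5 and 43.2 in early 2-cell, most of it Odf2 (68.7 and 38.8 FPKM), which was also at 47.3 FPKM in the unfertilized MII oocyte. The part of these markers in the differences was not tested.

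Genes known for the 2-cell stage were detected in greater number in the early 2-cell library, while of all gene symbols PN5 had 9997 and early 2-cell had 9505 at that level of 1 FPKM. From a list of Dux, Zscan4, Tcstv, Usp17l and related genes, 17 symbols were in the tables, and 2 were at 1 FPKM or more in MII, 5 in PN5, 13 in early 2-cell and 15 in the late control. Their summed level was 17.4 FPKM in PN5 and 87.8 in early 2-cell. Only 3 of the 17 passed the 10 FPKM rule, and all 3 passed it through their early 2-cell level, so that they were higher follows from the rule. Dux, a homeobox transcription activator of this stage, stood at 0.105 FPKM in MII, 2.24 in PN5, 25.4 in early 2-cell, 0.991 in the late control and 1.68 in the DRB library, a difference of 3.89 between early 2-cell and PN5. Its early 2-cell level was above all the other 4 libraries. Usp17lc, a deubiquitinase gene of a repeated family, was at 1.28 FPKM in PN5 and 10.6 in early 2-cell (difference 3.22), then at 43.9 in the late control and 24.9 in the DRB library. Duxbl1, a Dux relative, was at 0 in PN5 and 11.6 FPKM in early 2-cell, but it is table-grouped, with 16.5 FPKM in MII and 0 in both late libraries.

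Most of that list stayed under 10 FPKM, so its values are given without a call. Zscan4c, a zinc finger gene active in brief bursts in embryos and stem cells, was at 0.538 FPKM in PN5 and 4.70 in early 2-cell. Zscan4d went from 0.973 to 4.90 FPKM, and Zscan4f was listed at 0 in PN5 and at 4.16 FPKM in early 2-cell. In the late control these 3 were at 6.95, 12.8 and 2.44 FPKM. Tcstv1 and Tcstv3, which lie in a 2-cell gene cluster, went the other way, at 1.27 and 5.91 FPKM in PN5 and 0 in early 2-cell. Both were also listed at 0 in the MII oocyte and at 54.4 and 49.6 FPKM in the late control, the library that shares a table with PN5.

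A second list held Zfp352, Tdpoz, Trim43, PRAME family and other 2-cell genes, of which 56 symbols were in the tables. At 1 FPKM or more there were 19 in MII, 21 in PN5, 36 in early 2-cell and 45 in the late control. Zfp352, a zinc finger gene of the 2-cell stage, was at 0.241 FPKM in PN5, 4.82 in early 2-cell and 95.7 in the late control. Tmem92 was at 1.36 FPKM in PN5, 7.58 in early 2-cell and 74.3 in the late control. Some others under 10 FPKM went the other way, among them AF067063 (1.90 FPKM in PN5, 0 in early 2-cell) and BC147527 (2.05 and 0). Both of these were also at 0 in MII, and at 152 and 28.2 FPKM in the late control, which shares a table with PN5. The summed level of the 56 was 3057 FPKM in PN5 and 1113 in early 2-cell. Much of it came from genes already abundant in the oocyte, such as Rfpl4, at 602 FPKM in MII, 1571 in PN5 and 459 in early 2-cell (difference -0.91). Of the 12 members at 10 FPKM or more, 2 were higher, 2 were lower and the median difference was -0.06. None of the 10 at 10 FPKM or more in PN5 was higher. The lower pair were Arg2, the mitochondrial arginase (141 and 26.5 FPKM, difference -1.50), and C87499 (302 and 80.7 FPKM, difference -1.02). Among the homeobox Obox genes, whose products act in genome activation, Obox5 was at 585 FPKM in PN5 and 325 in early 2-cell (difference 0.02). Obox1 was at 381 and 166 FPKM (difference -0.33), within 2-fold, while Obox2 was at 11.7 FPKM in PN5 and listed at 0 in early 2-cell and in MII.

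The higher pair of that list, Gm6763 and Gm428, belong to small groups of protein-coding neighbours that stood apart in the early 2-cell library. The genes in this paragraph other than Gm6763 and Gm428 were chosen after their values were seen, as those with the widest gap between early 2-cell and the next library. Gm6763 was at 0 FPKM in PN5, 15.2 in early 2-cell, 0.0175 in MII and 0 in both late libraries. Its 4 neighbours, with no other protein-coding gene between them in the RefSeq annotation, had like values, at 16.1 FPKM for Gm8764, 17.1 for Gm21304, 18.1 for Gm21312 and 15.5 for Gm20765 in early 2-cell. All 5 were listed at 0 in PN5 and under 0.1 FPKM in MII, a table in which the early 2-cell number format was also used. Reads shared among such copies may be split or repeated, so the 5 values are not independent. Gm428 was at 10.9 FPKM in early 2-cell against 1.55 in MII, with Gm11236 at 17.9 and 1.70 and Gm11237 at 18.0 and 1.71. Gm4301 and Gm4312, another pair of copies, were each at 10.4 FPKM in early 2-cell and 0 in the other 4 libraries. Bfsp1, a single-copy gene for a lens filament protein, was at 13.5 FPKM in early 2-cell, 0.0986 in the late control and 0 in MII, in PN5 and in the DRB library. In all, without small RNA symbols, 119 of 5640 genes were at least 2-fold above each of the other 4 libraries in early 2-cell on the median-shifted scale. They include genes that reached 10 FPKM in early 2-cell only, such as Gm6763 and Gm4301, which could hardly be other than above PN5.

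**Figure D2:**
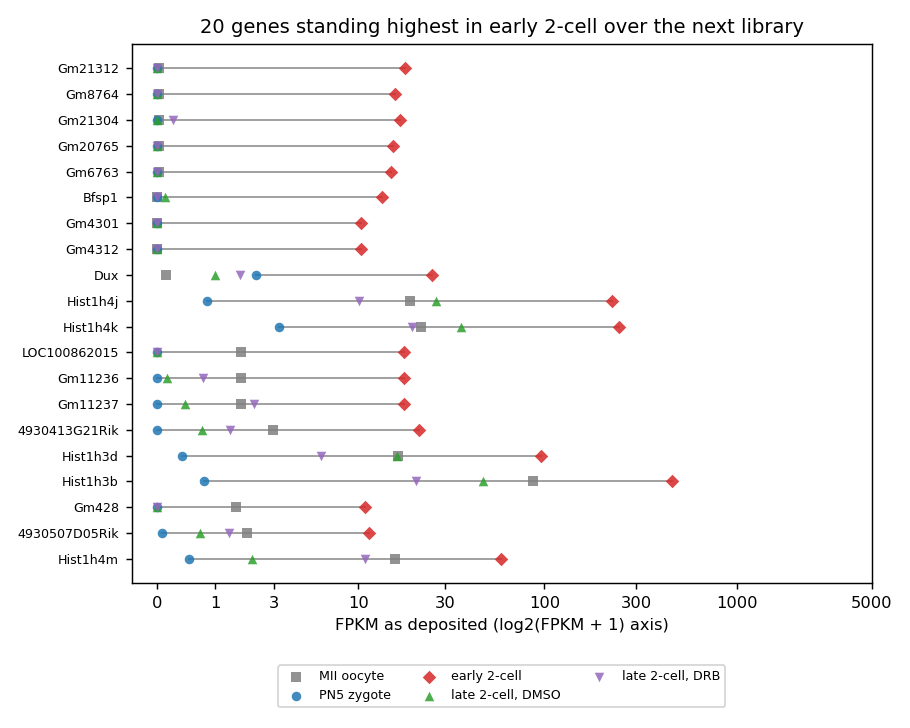
The 20 genes with the widest gap between early 2-cell (red diamonds) and the next of the other 4 libraries, by FPKM on a log2(FPKM + 1) axis, with a grey line from the PN5 to the early 2-cell value. Markers at 0 overlap, and 12 of the 20 are listed at 0 in PN5, among them the 5 neighbours Gm6763, Gm8764, Gm21304, Gm21312 and Gm20765.

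Replication-dependent core histone genes were the group with the most higher members. Of 51 core histone genes at 10 FPKM or more in either library, 38 were higher, none was lower, and the median difference was 3.01. This size rested in part on 26 genes that entered through their early 2-cell level alone, 20 of them under 1 FPKM in PN5. Of the 25 core histone genes at 10 FPKM or more in PN5, 12 were higher (48.0%, beside 6.83% of all such genes), none was lower and the median difference was 0.99. Of the 31 at 1 FPKM or more in PN5, 18 were higher with a median of 1.15, and none of the 18 was table-grouped. That definition misses Hist2h2aa1, which is among the 18, because early 2-cell (3052 FPKM) stood more than 2-fold above MII (1152). PN5 (1.63 FPKM) and both late libraries were far below these, so stage and table cannot be told apart in Hist2h2aa1. Early 2-cell FPKM was above MII FPKM, the library with its number format, in 47 of the 51, although the median ratio to PN5 was lower in early 2-cell (-0.87) than in MII (-0.33). The 26 genes that entered through their early 2-cell level alone favour that library in this count. Of the 31 at 1 FPKM or more in PN5, early 2-cell FPKM was above both PN5 and MII in 21. Among the 8 H2B genes of the 31 this held for 1.

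Histone families differed in how far they stood above PN5. Of the H3 genes at 1 FPKM or more in PN5, 6 of 7 were higher, with a median difference of 2.69. Of such H4 genes 8 of 10 were higher, with a median of 1.53, and of such H2A genes 3 of 6, with a median of 1.05. Of such H2B genes 1 of 8 was higher, with a median of 0.31. These counts include genes that reached 10 FPKM in early 2-cell only and could hardly be other than higher. Among them are Hist2h3b (5.23 FPKM in PN5), Hist1h4k (3.28), Hist2h2aa1 (1.63) and Hist1h2bp (1.31), the 1 higher H2B gene. The difference between families was not tested. Hist1h4h, an H4 gene, was at 101 FPKM in MII, 176 in PN5, 434 in early 2-cell, 734 in the late control and 856 in the DRB library (difference 2.16). Hist1h3e, an H3 gene, was at 13.2, 20.6, 75.7, 167 and 140.0 FPKM in the same order (difference 2.69). Both were lowest in MII and stood higher at each later stage. Hist1h4b was at 69.5 FPKM in PN5 and 311 in early 2-cell (difference 3.01), but at 163 in the late control. Hist1h2bk, the most abundant H2B gene in PN5, was at 631 FPKM in PN5 and 405 in early 2-cell (difference 0.23), within 2-fold. Hist1h2ba, the testis and oocyte H2B variant, had the lowest difference of the 51, at 232 and 75.2 FPKM (difference -0.75). These genes other than by the rule for naming genes were chosen after their values were seen, as examples of their families.

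The largest values in the comparison are histone genes whose copies are nearly identical. Hist2h2aa1 was at 1.63 FPKM in PN5 and 3052 in early 2-cell, but also at 1152 in MII and under 0.1 in both late libraries. Its copy Hist2h2aa2 was at 1075 FPKM in MII and 2848 in early 2-cell, and the H3 copies Hist2h3c1 and Hist2h3c2 at 176 and 180.5 in MII and 436 and 446 in early 2-cell. In PN5 these last 3 were under 1 FPKM. In these 4 genes early 2-cell stood above MII, and both stood far above the 3 libraries of the other table, and stage and table cannot be told apart in their differences of 9.64 to 12.34.

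**Figure D3:**
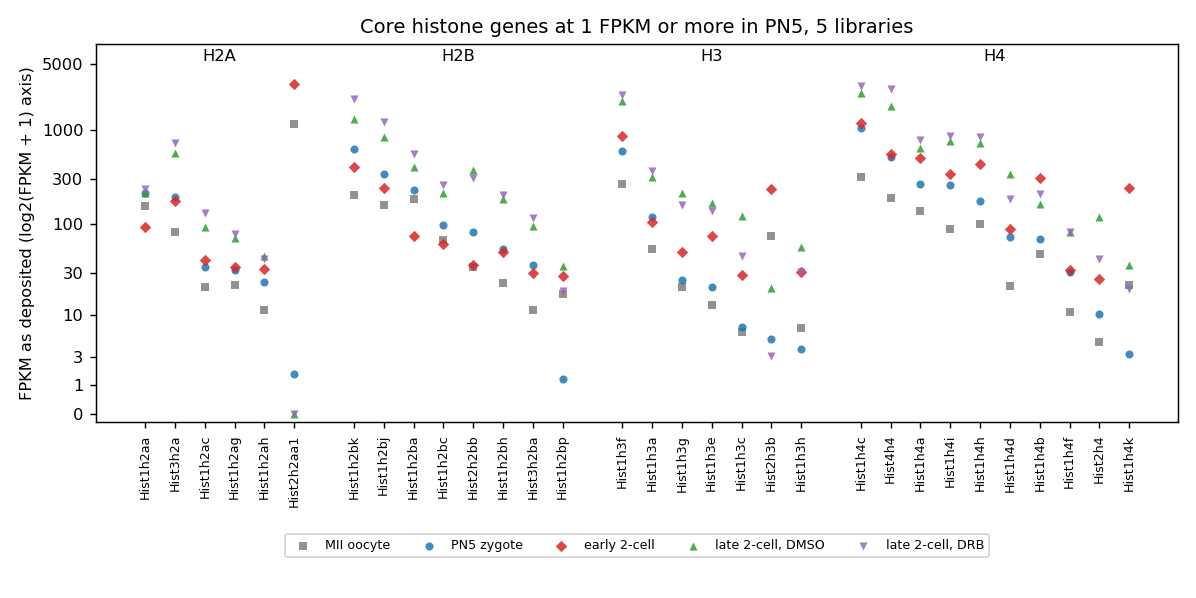
FPKM of the 31 core histone genes at 1 FPKM or more in PN5, by family and then by PN5 level, on a log2(FPKM + 1) axis, with 1 marker for each of 5 libraries. The H3 and H4 markers of early 2-cell (red diamonds) mostly sit above those of PN5 (blue circles), and the H2B ones mostly sit at or below them.

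The promoters of 4 higher genes are shown because 3 of them are histone genes that were higher and Usp17lc is a 2-cell gene higher than in PN5 and higher still in the late libraries. Each is the 250 bases before the RefSeq start of the gene in GRCm38.p6, read 5' to 3' on the gene's strand, with TATAAA and CCAAT in capitals on either strand (ATTGG is CCAAT on the other strand). The windows are chr13:23763418-23763667 (plus strand) for Hist1h1a, chr13:23562386-23562635 (minus strand) for Hist1h3e, chr13:23530794-23531043 (plus strand) for Hist1h4h and chr7:103416446-103416695 (plus strand) for Usp17lc.
Hist1h1a: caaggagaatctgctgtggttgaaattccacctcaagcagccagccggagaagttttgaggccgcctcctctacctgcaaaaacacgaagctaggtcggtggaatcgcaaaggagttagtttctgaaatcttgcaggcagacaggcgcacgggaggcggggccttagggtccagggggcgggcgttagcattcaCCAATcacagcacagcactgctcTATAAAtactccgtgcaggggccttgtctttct
Hist1h3e: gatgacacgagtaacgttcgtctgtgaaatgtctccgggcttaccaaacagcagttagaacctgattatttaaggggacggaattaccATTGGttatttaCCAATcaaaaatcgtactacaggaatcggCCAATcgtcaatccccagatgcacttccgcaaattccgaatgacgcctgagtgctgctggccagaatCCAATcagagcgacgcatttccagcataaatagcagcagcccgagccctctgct
Hist1h4h: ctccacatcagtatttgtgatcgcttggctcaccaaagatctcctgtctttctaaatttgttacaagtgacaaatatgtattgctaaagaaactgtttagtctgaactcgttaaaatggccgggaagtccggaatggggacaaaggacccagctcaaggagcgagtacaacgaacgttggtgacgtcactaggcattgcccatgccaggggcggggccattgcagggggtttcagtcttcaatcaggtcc
Usp17lc: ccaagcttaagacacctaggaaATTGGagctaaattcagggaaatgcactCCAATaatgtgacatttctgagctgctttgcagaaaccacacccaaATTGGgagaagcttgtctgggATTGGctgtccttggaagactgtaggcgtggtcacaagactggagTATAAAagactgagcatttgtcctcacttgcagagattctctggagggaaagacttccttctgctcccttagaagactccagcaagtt
Hist1h1a held 1 CCAAT and 1 TATAAA, Hist1h3e held 4 CCAAT and no TATAAA, Hist1h4h held neither, and Usp17lc held 4 CCAAT and 1 TATAAA.

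Across all matched promoters, with 50 bases after the start added to the window, RefSeq sequences were found for 4590 of the 5693 genes (80.6%). TATAAA was present on either strand in 26 of 47 core histone promoters (55.3%), against 14.2% of the promoters of all 27025 symbols. CCAAT was present in 38 of the 47 (80.9%), against 37.9% of all. Among higher genes 13.1% held TATAAA, among those within 2-fold 6.14% and among lower genes 7.94%, and without core and H1 histones the share of higher genes was 9.15%. GGGCGG was present in 67.8% of higher, 67.2% of within 2-fold and 63.6% of lower promoters, against 35.9% of all. GGATTA, the core of Otx-type homeodomain sites, was present in 5.75%, 5.33% and 5.89% of the same groups, against 7.16% of all. The Dux site, searched by its letters on either strand, was in none of the 4590, against 0.0407% of all. Each motif was searched on its own, so matches of different motifs may share letters. The median GC share of the windows was 60.7% for higher, 61.7% for within 2-fold and 61.0% for lower genes.

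Linker histones and variants were divided. Hist1h1a, the linker histone H1.1, was at 925 FPKM in MII, 1915 in PN5, 4419 in early 2-cell, 4252 in the late control and 5103 in the DRB library (difference 2.07). It was the second most abundant gene of the comparison by mean FPKM. Hist1h1c, the linker histone H1.2, was at 14.4 FPKM in PN5 and 48.2 in early 2-cell (difference 2.54). Of 25 variant, linker and histone chaperone genes, 8 were higher and 4 lower, with a median of 0.24. H1foo, the oocyte linker histone, lay within 2-fold, at 1138 FPKM in MII, 311 in PN5, 125 in early 2-cell, 58.8 in the late control and 52.1 in the DRB library (difference -0.45), a gene added after its values were seen. H3f3b, which encodes the replacement histone H3.3, lay within 2-fold at 349 and 239 FPKM (difference 0.32), as did Slbp, the protein that binds histone mRNA stem-loops, at 518 and 323 FPKM (difference 0.19). The lower members included Asf1a, a histone H3-H4 chaperone (126 and 22.3 FPKM, difference -1.58), and Atrx, a chromatin remodeller that deposits H3.3 (78.3 and 13.9 FPKM, difference -1.54, table-grouped).

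Genes that store and deadenylate maternal mRNA leaned lower. Of 37 such genes, 13 were lower, beside the background of 17.4%, and 4 were higher, with a median difference of -0.40. Of the 13, 6 were table-grouped. Cnot2, a scaffold subunit of the CCR4-NOT deadenylase, was at 26.0 FPKM in MII, 68.3 in PN5, 4.20 in early 2-cell, 49.6 in the late control and 74.5 in the DRB library (difference -2.87). Its early 2-cell level was the lowest of the 5. Dazl, an RNA-binding protein that promotes translation of stored mRNA, was at 98.8, 285, 32.6, 73.5 and 134 FPKM in the same order (difference -2.22), also lowest in early 2-cell. Cnot7, a catalytic deadenylase subunit, was at 368 FPKM in PN5 and 44.6 in early 2-cell (difference -2.15), but is table-grouped, with 122 in MII and 385 in the late control. Cpeb1, which binds cytoplasmic polyadenylation elements, was at 119.8 and 25.7 FPKM (difference -1.31), with 111 in MII and 24.4 in the late control. The values of Cnot7 and Cpeb1 were added after they were seen.

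Other storage factors stood level or above the median gene, and the calls of Zar1 and Pabpc1l rest on the median shift. Zar1, an oocyte RNA-binding protein needed past the zygote, was at 906 FPKM in MII, 245 in PN5 and 379.6 in early 2-cell (difference 1.49). Pabpc1l, the embryonic poly(A)-binding protein, was at 113, 79.0 and 119 FPKM in these (difference 1.45), and at 17.1 in the late control. Btg4 lay within 2-fold (difference -0.29), as did Eif4e1b, an oocyte cap-binding protein, at 793 and 667 FPKM (difference 0.62).

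**Figure D4:**
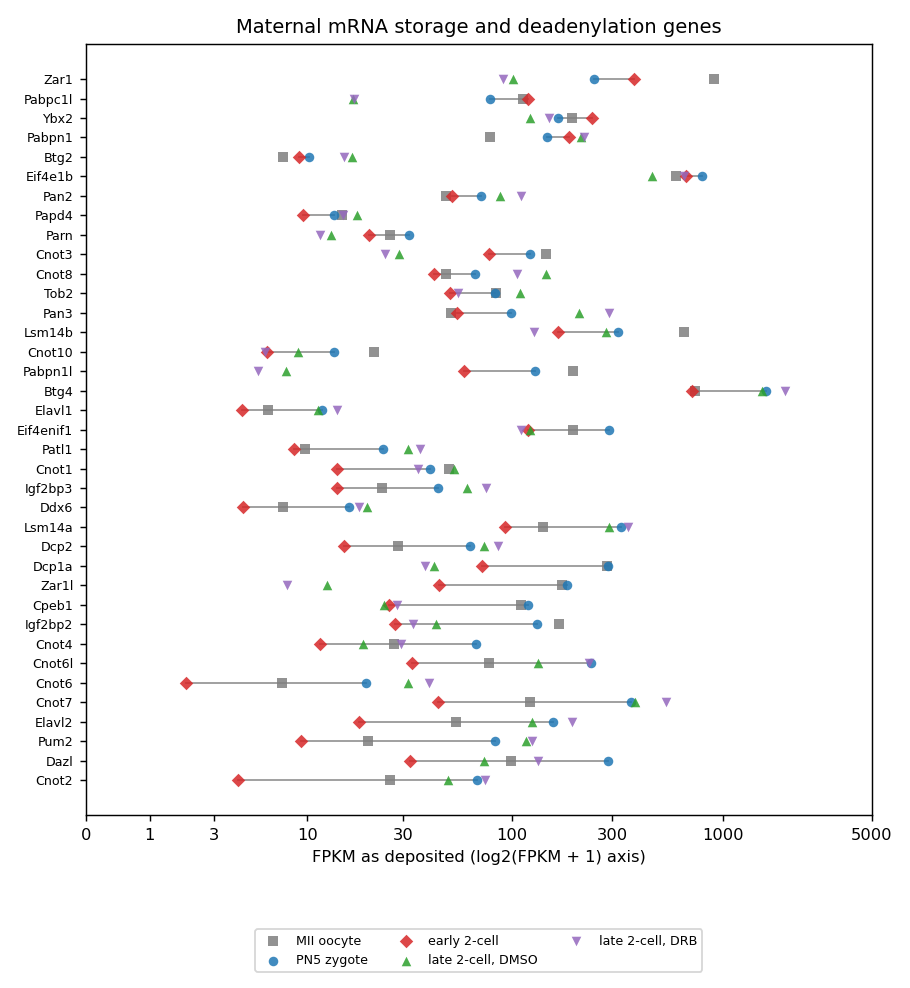
FPKM of the 37 maternal mRNA storage and deadenylation genes in 5 libraries on a log2(FPKM + 1) axis, ordered by the difference between early 2-cell (red diamonds) and PN5 (blue circles), which a grey line joins. The list runs from Zar1 (245 to 379.6 FPKM) at the top to Cnot2 (68.3 to 4.20 FPKM) at the foot, and MII (grey squares) often sits near early 2-cell where the late libraries sit near PN5.

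Zona and oocyte-secreted genes held no higher member, with 5 lower of 16 and a median of -0.67. Oosp2, a secreted oocyte protein, was at 146 FPKM in MII, 235 in PN5, 24.1 in early 2-cell, 20.2 in the late control and 48.4 in the DRB library (difference -2.37). All 3 libraries after cleavage lay below both before it. Oosp3 was at 491 FPKM in PN5 and 87.5 in early 2-cell (difference -1.61). Bmp15, the oocyte growth factor, was at 1393 and 274 FPKM (difference -1.48) and Oosp1 at 1063 and 273 (difference -1.09), and both are table-grouped. Omt2b, an oocyte maturation gene, lay within 2-fold at 643 and 379 FPKM (difference 0.10).

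The subcortical maternal complex, a protein lattice under the egg membrane, and the oocyte Nlrp genes gave 3 higher and 3 lower of 19, with a median of -0.58. Zbed3, a member of the complex and the most abundant gene of the comparison, was at 2951 FPKM in MII, 5112 in PN5, 6021 in early 2-cell, 3667 in the late control and 5425 in the DRB library (difference 1.10). Its deposited FPKM in PN5 and early 2-cell differ little, so the call rests on the median shift. Ooep, another member, lay within 2-fold at 825 and 302 FPKM (difference -0.58). Nlrp4b was at 141 and 31.5 FPKM (difference -1.26). Nlrp4g was at 257 FPKM in PN5 and 0 in early 2-cell, and it was also at 0 in MII and at 94.0 in the late control.

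The Tcl1 cluster, oocyte co-activators of AKT, stayed close to the median gene. Of 6 members 1 was higher and none lower, with a median of 0.32. Tcl1b4 was at 93.5 FPKM in PN5 and 114 in early 2-cell (difference 1.14), which without the median shift lay within 2-fold. Tcl1, Tcl1b1, Tcl1b2, Tcl1b3 and Tcl1b5 had differences of 0.07, 0.55, 0.28, 0.36 and 0.02.

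Oocyte transcription and chromatin factors gave 3 higher and 3 lower of 22, with a median of -0.18. Of the 20 at 10 FPKM or more in PN5, 1 was higher. Npm3, a nucleoplasmin family histone chaperone, was at 14.6 FPKM in MII, 3.34 in PN5, 21.4 in early 2-cell, 4.93 in the late control and 9.68 in the DRB library (difference 3.24). Its MII and early 2-cell levels were both above PN5 and both late libraries, so stage and table cannot be told apart. Zfp57, which maintains imprints, lay within 2-fold at 1506 and 1026 FPKM (difference 0.31). Spin1, a reader of methylated histone H3, was at 2445 and 613 FPKM (difference -1.13, table-grouped). Ezhip, listed under its older symbol AU022751 and known as an inhibitor of the Polycomb methyltransferase, was at 698 FPKM in MII, 995 in PN5, 1834 in early 2-cell, 282 in the late control and 417 in the DRB library (difference 1.75). Its early 2-cell level was the highest of the 5.

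Meiotic and M-phase regulators gave 5 higher and 10 lower of 41, with a median of -0.05. Aurkc, the meiotic Aurora kinase, was at 94.7 FPKM in MII, 33.4 in PN5 and 58.7 in early 2-cell (difference 1.66). Ccnb1, cyclin B1, was at 113 and 146 FPKM (difference 1.24), while the related Ccnb3 was at 16.3 and 2.09 FPKM (difference -1.62), a pair added after their values were seen. Pttg1, securin, lay within 2-fold at 611 and 413 FPKM (difference 0.30). Ppp2r5c, a regulatory subunit of the phosphatase PP2A, was at 101 and 13.6 FPKM (difference -1.94, table-grouped).

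Cell cycle, replication and licensing genes gave 5 higher and 8 lower of 50, with a median of -0.03. Of the 48 at 10 FPKM or more in PN5, 3 were higher. Cdkn1c, the imprinted CDK inhibitor p57, was at 5.90 FPKM in MII, 7.15 in PN5, 19.3 in early 2-cell, 37.7 in the late control and 22.8 in the DRB library (difference 2.18). Chek1, the checkpoint kinase, was at 251 and 45.0 FPKM (difference -1.59), and Orc4, a subunit of the origin recognition complex, at 29.8 and 3.81 (difference -1.81). E2f1, a regulator of S-phase genes, lay within 2-fold at 112 and 113 FPKM (difference 0.88).

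Genes of RNA polymerase II, its pausing and elongation gave 4 higher and 13 lower of 44, with a median of -0.21, and 5 of the 13 were table-grouped. Gtf2h1, a subunit of the initiation factor TFIIH, was at 23.0 FPKM in MII, 41.2 in PN5, 3.18 in early 2-cell, 26.2 in the late control and 27.2 in the DRB library (difference -2.47), lowest in early 2-cell. Gtf2a2, a subunit of TFIIA, was at 19.4 FPKM in MII, 57.0 in PN5, 5.19 in early 2-cell, 72.2 in the late control and 114 in the DRB library (difference -2.36). MII was also below PN5, and both late libraries were above it. Polr2d and Gtf2b were at 116 and 193 FPKM in PN5 and 24.3 and 43.4 in early 2-cell (differences -1.35 and -1.26). Taf10, a TFIID and SAGA subunit, went the other way at 49.8 FPKM in MII, 29.7 in PN5 and 75.2 in early 2-cell (difference 2.18). Polr2c, the RPB3 subunit, was at 64.9 and 185 FPKM (difference 2.36, table-grouped). Polr2f, a small shared polymerase subunit, lay within 2-fold at 81.8 and 63.8 FPKM (difference 0.51).

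Factors named for genome activation gave 3 higher and 2 lower of 22, with a median of 0.08. Foxo3, a forkhead factor of the oocyte, was at 188 FPKM in PN5 and 254 in early 2-cell (difference 1.30), while Klf17 and Yap1 lay within 2-fold, with differences of 0.16 and -0.05. The NF-Y complex, which binds CCAAT, had Nfya at 149.9 and 40.3 FPKM, just past 2-fold lower, and Nfyc at 30.3 and 38.6 FPKM (difference 1.21, table-grouped). Immediate early and AP-1 genes gave 3 higher and none lower of 6, with a median of 0.94, which was 0.075 without the median shift. Of the 5 at 10 FPKM or more in PN5, 2 were higher. Srf, serum response factor, was at 38.8 FPKM in MII, 35.6 in PN5, 75.6 in early 2-cell, 37.2 in the late control and 26.4 in the DRB library (difference 1.93), highest in early 2-cell. Jund was at 4.01 and 11.2 FPKM (difference 2.15) and Dusp1, a MAP kinase phosphatase, at 53.2 and 66.0 (difference 1.17).

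Pluripotency and early lineage factors gave 2 higher and none lower of 7, with a median of 0.57. Without the median shift neither was higher, and the median was -0.30. Pou5f1, which encodes OCT4, was at 147 FPKM in MII, 189 in PN5, 252 in early 2-cell, 203 in the late control and 236 in the DRB library (difference 1.28). Dppa5a, an RNA-binding protein of pluripotent cells, was at 12.1 and 23.6 FPKM (difference 1.78), below its MII level of 56.9. DNA methylation and demethylation genes gave 2 higher and none lower of 12, with a median of 0.09. Of the 11 at 10 FPKM or more in PN5, 1 was higher. Mbd2, which binds methylated DNA, was at 3.52 and 15.2 FPKM (difference 2.71), while Uhrf1, the cofactor of maintenance methylation, and Tet3, the zygotic demethylase, lay within 2-fold (differences 0.75 and -0.13).

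Proteasome genes had the lowest median of the lists with 3 or more members, -0.83, with 15 lower and 4 higher of 37, and none of the 15 was table-grouped. Of the 35 at 10 FPKM or more in PN5, 2 were higher. Psma6, an alpha ring subunit, was at 59.0 FPKM in MII, 109 in PN5, 6.74 in early 2-cell, 21.2 in the late control and 21.8 in the DRB library (difference -2.96). Psma2 was at 168 and 22.3 FPKM (difference -1.99), and Psma7 at 159 and 35.6 (difference -1.26). Adrm1, the ubiquitin receptor of the proteasome, was at 4.44 and 37.5 FPKM (difference 3.69, table-grouped), and Psmd4, another receptor, lay within 2-fold (difference 0.31). Ube2w, a ubiquitin-conjugating enzyme outside the list, was at 39.7 FPKM in MII, 135 in PN5, 8.54 in early 2-cell, 28.9 in the late control and 41.2 in the DRB library (difference -2.96).

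Nuclear genes of oxidative phosphorylation gave 14 lower and 6 higher of 41, with a median of -0.68, and 1 of the 14 was table-grouped. Of the 37 at 10 FPKM or more in PN5, 2 were higher. Cox5a, a cytochrome c oxidase subunit, was at 102 FPKM in MII, 164 in PN5, 17.4 in early 2-cell, 93.0 in the late control and 67.9 in the DRB library (difference -2.30). Uqcr10, of complex III, was at 28.7 and 2.80 FPKM (difference -2.10). Cox5b, another subunit of cytochrome c oxidase, was at 36.3 FPKM in MII, 5.54 in PN5, 24.6 in early 2-cell, 1.84 in the late control and 3.76 in the DRB library (difference 2.84). It was high in MII and early 2-cell and low in the libraries that share a table with PN5, so stage and table cannot be told apart. The ATP synthase genes Atp5b and Atp5a1 lay within 2-fold (differences 0.26 and 0.19). Chaperones gave 8 lower and 5 higher of 33, with a median of -0.67. Of the 31 at 10 FPKM or more in PN5, 3 were higher. Hsp90b1, the chaperone of the endoplasmic reticulum, was at 101 and 14.8 FPKM (difference -1.83), while the inducible Hspa1b was at 5.04 and 11.1 FPKM (difference 1.87). Hspb1, a small heat shock protein, was at 3.36 and 12.3 FPKM (difference 2.47).

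Among ribosomal protein genes, the higher ones stood above PN5 and mostly below MII. Of 36 members, 22 were higher and 1 lower, with a median of 2.88, but 12 were under 1 FPKM in PN5, and among the other 24 there were 10 higher, 1 lower and a median of 0.48. Of the 16 at 10 FPKM or more in PN5, 2 were higher and 1 lower, with a median of -0.05. Of the 22 higher genes, 21 had less FPKM in early 2-cell than in MII, and 20 were below MII with both libraries on the median-shifted scale, where Rps2 moved above it. Rplp2, of the ribosomal stalk, was at 49.7 FPKM in MII, 0 in PN5, 87.8 in early 2-cell and 7.36 in the late control, and was the 1 member above its MII level in FPKM. Rps2 was at 98.2, 7.11, 86.3 and 31.1 FPKM in these (difference 4.29). Rpl4, of the large subunit, lay within 2-fold (difference -0.80). Of the 36 members, 8 were under 1 FPKM in PN5 and both late libraries and at 10 FPKM or more in early 2-cell and MII. Stage and table cannot be told apart in these 8, and 4 of the 22 higher genes were table-grouped. Of the 79 ribosomal protein genes in the tables, 38 reached 1 FPKM in PN5, 58 in the late control, 73 in early 2-cell and 78 in MII. Ribosomal proteins have many processed copies in the genome.

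Ribosome assembly and RNA polymerase I genes gave 15 lower and 4 higher of 67, with a median of -0.44, and 1 of the 15, Taf1a, was at 0 in early 2-cell and MII. Utp11l, of the small subunit processome, was at 15.7 FPKM in PN5 and 1.49 in early 2-cell (difference -1.88), and Rrp7a, of the same assembly path, at 9.87 and 23.2 (difference 2.02). Npm1, nucleophosmin, lay within 2-fold (difference 0.43). Translation factors gave 9 lower and 3 higher of 42, with a median of -0.16. Eif3e, an initiation factor subunit, was at 56.8 and 5.26 FPKM (difference -2.34), and Eif1ax was at 159 FPKM in MII, 165 in PN5, 22.0 in early 2-cell and 28.7 in the late control (difference -1.98). All 3 higher translation factors, with the helicase Eif4a1 at 42.6 and 125 FPKM (difference 2.39), were table-grouped. Splicing genes gave 7 lower and 5 higher of 49, with a median of -0.21. Of the 45 at 10 FPKM or more in PN5, 1 was higher. Clk1, a kinase of splicing factors, was at 49.9 FPKM in MII, 95.2 in PN5, 7.23 in early 2-cell and 12.5 in the late control (difference -2.68), and Snrpb2, of the U2 particle, at 87.9 and 12.5 FPKM in PN5 and early 2-cell (difference -1.86). Snrpg, an Sm core protein, was at 1.83 and 43.8 FPKM (difference 4.85), with 40.0 in MII, 8.07 in the late control and 12.0 in the DRB library. It was higher in MII and early 2-cell than in PN5 and both late libraries, so stage and table cannot be told apart.

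Of 5 snoRNA host and nuclear noncoding RNA genes, 3 were higher and 1 lower, with a median of 1.11, and without the median shift 1 was higher, with a median of 0.24. Rn45s, the ribosomal RNA precursor, was at 353 FPKM in MII, 169 in PN5, 1874 in early 2-cell, 5202 in the late control and 3913 in the DRB library (difference 4.33). Since ribosomal RNA was depleted before sequencing, the level of Rn45s also depends on how much was left in each library, which was not measured here. Lars2, a mitochondrial leucyl-tRNA synthetase gene added after its values were seen, stood in the same order of libraries at 59.8, 48.7, 339.8, 1061 and 658 FPKM (difference 3.64). Rpph1, the RNA of ribonuclease P, was at 1129 and 1611 FPKM in PN5 and early 2-cell (difference 1.38), and Rmrp, the RNA of a related enzyme, at 57.0 and 67.6 (difference 1.11). Snhg6, a snoRNA host gene, was at 14.7 and 1.37 FPKM (difference -1.86). Small RNA symbols were 53 of all the genes, 26 of them higher and 20 lower, and FPKM of genes this short is uncertain.

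Metabolism and transport genes gave 6 higher and 1 lower of 18, with a median of 0.30. Of the 16 at 10 FPKM or more in PN5, 4 were higher. Oaz1, the polyamine regulator antizyme, was at 139 FPKM in MII, 14.9 in PN5, 169 in early 2-cell and 45.8 in the late control (difference 4.29), with its pseudogene Oaz1-ps under 1 FPKM in PN5. Oaz1 was higher in MII and early 2-cell than in PN5 and both late libraries, so stage and table cannot be told apart. Pkm, pyruvate kinase, was at 109 and 188 FPKM (difference 1.64, table-grouped), and Ldhb, lactate dehydrogenase B, lay within 2-fold (difference 0.72).

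Where both libraries held at least 1 FPKM, the largest decreases were of genes with varied roles. Pld1 (difference -3.60) and Dab2, an endocytic adaptor (difference -3.06), were table-grouped. Haus3, an augmin subunit of the spindle, was at 48.5 FPKM in MII, 67.7 in PN5, 2.37 in early 2-cell, 22.6 in the late control and 10.0 in the DRB library (difference -3.48). Fetub, fetuin B, which keeps the zona from hardening early, was at 16.2, 54.5, 2.62, 5.98 and 6.75 FPKM in the same order (difference -3.07). Vbp1, a prefoldin subunit, was at 54.1 and 2.89 FPKM (difference -2.96), and Dnttip2, a nucleolar protein, at 55.0 and 3.17 (difference -2.88). In Haus3 and Fetub all 3 libraries after cleavage were below both before it, and early 2-cell was the lowest of the 5. E330017A01Rik, Trappc9, Gpr56 and Ipcef1 were also among the 12 largest decreases, with differences of -3.10, -2.96, -2.93 and -2.92.

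Some abundant genes were low in early 2-cell and in both late libraries, and were chosen after their values were seen. Txnip, the thioredoxin-interacting protein, was at 456 FPKM in MII, 478 in PN5, 48.7 in early 2-cell, 33.2 in the late control and 36.7 in the DRB library (difference -2.40). Ssb, the La RNA chaperone, was at 140.2, 323, 24.0, 21.5 and 24.7 FPKM (difference -2.83), and Ftdc1, listed as Gm813, at 313, 262, 18.8, 5.07 and 6.98 FPKM (difference -2.87). In all 3 the libraries before cleavage, from separate tables, stood above the 3 after it. Others were low in early 2-cell only, and were chosen in the same way. Without small RNA symbols, 147 of 5640 genes were at least 2-fold below each of the other 4 libraries. Calm2, a calmodulin gene, was at 89.8 FPKM in MII, 102 in PN5, 7.89 in early 2-cell, 90.8 in the late control and 85.4 in the DRB library (difference -2.67). Tm9sf2, an endosomal membrane protein, was at 160.5, 140.2, 12.1, 132 and 135 FPKM (difference -2.57). For these the 4 other libraries lay close together and early 2-cell alone was low. The 147 genes here, and the 119 that were high in early 2-cell alone, each rest on this 1 library, and the length and base composition of their transcripts were not analysed.

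Of the 12 largest increases at 1 FPKM or more in both libraries, Hist1h4k, Hist2h3b and Hist1h2bp are histone genes like Hist2h2aa1, at differences of 6.70, 6.11 and 4.51. Cxx1b, Gm6644, Gm2042 and Gm20605 were also among the 12, at 5.08, 4.74, 4.69 and 4.34. Psenen, a gamma-secretase subunit, was at 129 FPKM in MII, 6.96 in PN5, 214 in early 2-cell and 4.77 in the late control (difference 5.62), and Gps1, a COP9 signalosome subunit, at 49.9, 3.04, 53.6 and 8.98 (difference 4.62). In both, PN5 and the late control were low and MII and early 2-cell were high. Genes without that pattern, chosen after their values were seen, included Cdc34, a ubiquitin-conjugating enzyme of the cell cycle, at 55.4 FPKM in MII, 48.9 in PN5, 152 in early 2-cell, 144 in the late control and 142 in the DRB library (difference 2.48). Bcl7c, a subunit of the SWI/SNF remodeller, was at 146, 95.1, 299, 305 and 314 FPKM (difference 2.51), and Lbx1, a homeobox gene, at 42.6, 50.3, 134, 114 and 131 (difference 2.26). In these 3 genes the libraries after cleavage stood above both before it. Fbxl19, a CpG island-binding protein, was at 72.1, 73.7, 144, 49.3 and 54.4 FPKM (difference 1.83), high in early 2-cell alone.

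**Figure D5:**
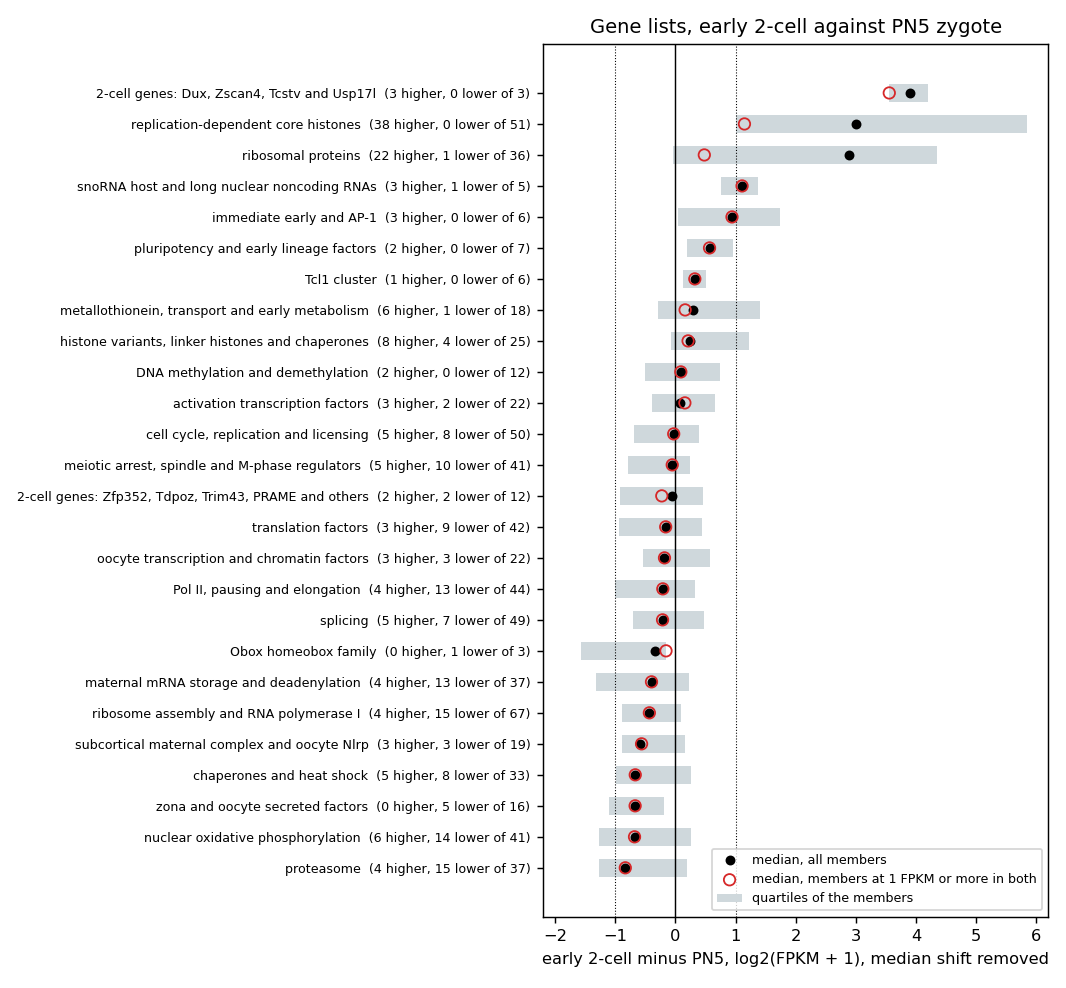
Median difference between early 2-cell and PN5 (black points) and quartiles (grey bars) for each gene list with 3 or more members, on the log2(FPKM + 1) scale with the median shift removed, and the median without genes under 1 FPKM in one library (red circles). Core histones go from 3.01 to 1.15 and ribosomal proteins from 2.88 to 0.48 without those genes, and proteasome genes have the lowest median at -0.83.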

How the data were processed

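Total RNA was sequenced from 1 library in each of 5 groups, and the authors deposited the values as FPKM per gene symbol in 3 tables, with PN5 and both late 2-cell libraries sharing one. Per the submitters' processing notes, Cufflinks 2.1.1, TopHat2 2.1.1, CASAVA 1.8 and the build mm9 were used, in roles the notes leave out. How fragments were assigned to copies, and with which annotation, is not given in the sources used here. Rows sharing a symbol were summed (495 repeated rows in the early 2-cell table and 497 in the PN5 table). The difference was that of log2(FPKM + 1), with a pseudocount of 1 FPKM, after centring on the median log2 ratio over genes that reached 5 FPKM in both libraries, for genes at 10 FPKM or more in either library. A gene was called at a 2-fold difference, and genes under 1 FPKM in one library were marked. Read depth is unknown, and no test or interval was possible with 1 library in each group.

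Genes were described by 28 lists with 1192 entries. The comparison and these lists were chosen with earlier results of these data known. Named genes were, by rule, the 12 largest increases and 12 largest decreases at 1 FPKM or more in both libraries, the 8 highest genes under 1 FPKM in one library only, the most abundant and most changed members of each list, all 2-cell, Obox, Tcl1, cumulus and sperm list members, and the 10 most abundant genes. Others are said to be chosen after their values were seen, except markers of cell type or stage set in the design and list genes under 10 FPKM. The latter, such as Zscan4f, Tcstv3, Tmem92 and AF067063, were given as examples without a rule. The text prints part of the genes that the rule names, and one of them is not reported here. The script was tested on simulated data. Analyses used Python 3.11.15, pandas 2.3.3 and numpy 2.4.6. Promoter sequences were those of RefSeq, GRCm38.p6, matched by symbol. The 2 inner cell mass columns and the chromatin samples were not used here.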

Additional observations from a re-analysis of the deposited data

How the results depend on the processing

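No paired analysis was possible because each group held 1 library, and no replicate could be left out. Each count and list median was recomputed under 13 other settings fixed with the design, and each named gene under the 7 of them that bear on single genes. Without the median shift there were 246 higher and 2860 lower genes, and the share of higher among all called genes was 7.92% instead of 38.7%. That share was 27.2% with each library rescaled to a sum of 1000000 and 28.1% with the median taken over genes at 20 FPKM or more in both. A pseudocount of 5 FPKM left 439 lower genes and made the higher share 58.2%. With genes at 1 FPKM or more in either library there were 1826 higher genes (60.2% of those called), and at 20 FPKM or more 403. Without the table-grouped genes, a setting chosen after seeing the data, 394 were higher and 633 lower.

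Of 364 list medians recomputed, 335 stayed on the same side of the 2-fold rule, 23 passed it in their own direction, 5 no longer passed it and 1 went past it in the other direction. The last was the Zfp352, Tdpoz, Trim43 and PRAME list, at 1.72 with genes at 1 FPKM or more. The ribosomal protein median no longer passed without genes under 1 FPKM in one library, at 0.48. The noncoding RNA median was 0.93 at 5 FPKM or more, 0.24 without the shift, 0.98 rescaled to the sum and 0.95 with the median at 20 FPKM. Without the shift, medians under -1 were -1.20 (Obox), -1.07 (Pol II), -1.45 (subcortical maternal complex), -1.53 (zona and secreted), -1.05 (oocyte transcription and chromatin), -1.26 (mRNA storage), -1.30 (ribosome assembly), -1.03 (translation), -1.08 (splicing), -1.70 (proteasome), -1.54 (oxidative phosphorylation), -1.53 (chaperones) and -1.75 (cumulus and granulosa). Rescaled to the sum, the proteasome median was -1.02. The immediate early median was 1.29 with genes at 1 FPKM or more, 1.17 at 20 FPKM or more and at a mean of 10 FPKM or more, and 1.05 with upper quartiles set equal, but 0.61 at 5 FPKM or more and 0.075 without the shift. The cumulus and granulosa median, over 2 genes, was -1.01 with a pseudocount of 0.1 FPKM, -1.12 at 20 FPKM or more and at a mean of 10 FPKM or more, -1.13 rescaled to the sum and -1.05 with the median at 20 FPKM. Of 208 named genes, none changed direction past the rule under those 7 settings, and without the shift 23 no longer passed it and 24 newly did.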
